A study of Mus musculus with 12 samples.

Results

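The genes described here are 8 regulators of mitochondrial biogenesis: the coactivators Ppargc1a and Ppargc1b, the nuclear receptors Esrra and Esrrg, the nuclear transcription factor Nrf1, the mitochondrial DNA (mtDNA) packaging factor Tfam, and the deacetylases Sirt1 and Sirt3. They were taken as a list of names that uses no measured value, and make up 8 of the 56941 genes in the count tables. All 8 were among the 20341 genes with enough reads to be tested. They were followed in RNA from whole cerebellum of 12 mice, 3 in each of 4 groups, at 16 weeks of age. SCA1 mice were Atxn1 154Q/2Q knock-in heterozygotes, which carry an expanded CAG repeat in 1 of the 2 endogenous copies of Atxn1 and model spinocerebellar ataxia type 1. WT mice were wild-type C57BL/6J littermates, and both sexes were used in the study, although the sample labels do not give the sex of each mouse. Mice of the exercise groups were housed alone with a running wheel for 12 weeks from 4 weeks of age, while sedentary mice were housed in groups without one, so that running and solitary housing cannot be told apart. The wheels were taken away days before the behavioral tests that preceded tissue collection. The knock-in is present in every cell type that expresses Atxn1.

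In the textbook account, the protein products of Ppargc1a and Ppargc1b do not bind DNA themselves but are recruited by nuclear receptors and NRF1 to promoters of genes for mitochondrial proteins. NRF1 and the estrogen-related receptors drive Tfam and the nuclear genes of respiration, and TFAM enters the organelle, where it coats mtDNA and starts its transcription. Energy sensors such as AMPK, calcium signalling through CREB, and NAD-dependent deacetylation by SIRT1 raise the amount or activity of PGC-1alpha, and in brain PGC-1alpha is abundant in parvalbumin interneurons. In muscle Ppargc1a is known as a gene induced by exercise. The design therefore asks whether these transcripts differed with the SCA1 allele, with running, or with both.

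Ppargc1a and Esrra each held a textbook recognition sequence of this pathway close to the start of the canonical transcript. Windows of 250 bases before the start of the canonical transcript were read on GRCm39 and searched on both strands. The cyclic AMP response element TGACGTCA, which is bound by CREB, was found in 1.68% of 21667 such windows of protein-coding genes and, among the 8 genes, in Ppargc1a, 83 to 76 bases before the start. The NRF1 core GCATGCGC was found in 2.66% of windows and, among the 8, in Esrra, 25 to 18 bases before the start. The shorter TGACG, which lies within TGACGTCA, was in 18% of windows and in those of Ppargc1a and Tfam. None of the 8 windows held the estrogen-related receptor element TCAAGGTCA (0.434% of all windows), its inner AAGGTCA (3.88%) or the ETS site CCGGAAGT (2.64%). The windows of Ppargc1a and Esrra are printed because they hold those matches, with the matched bases in capitals. They are chr5:51711265-51711514 and chr19:6899186-6899435, both on the minus strand of GRCm39 and written 5′ to 3′ on that strand.
Ppargc1a: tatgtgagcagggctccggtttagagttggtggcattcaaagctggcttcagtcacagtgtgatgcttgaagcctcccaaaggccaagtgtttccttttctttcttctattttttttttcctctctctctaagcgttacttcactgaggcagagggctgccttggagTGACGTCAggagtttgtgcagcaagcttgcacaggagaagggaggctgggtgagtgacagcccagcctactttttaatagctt
Esrra: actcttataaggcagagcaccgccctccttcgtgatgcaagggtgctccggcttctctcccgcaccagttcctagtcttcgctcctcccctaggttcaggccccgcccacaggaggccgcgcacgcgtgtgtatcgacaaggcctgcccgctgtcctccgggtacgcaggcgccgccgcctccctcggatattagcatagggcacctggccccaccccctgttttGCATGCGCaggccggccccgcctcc
These are matches of letters in the reference and were not measured in the mice. Both lie inside the annotated genes, which extend past the canonical starts to chr5:51725068 and chr19:6899336.

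The libraries held 55059831 to 69065648 read pairs, of which 20556802 to 32127508 were counted on genes on the transcribed strand. Levels are given in CPM, the count scaled to a library of 1000000 counted read pairs with TMM factors for composition, and the 8 genes had between 415 and 2929 counted read pairs in a library. Purkinje, granule cell and Bergmann glia markers were abundant in all 12 libraries, as the labelled tissue requires. The summed log2 CPM of 4 chromosome Y genes was -9.94 in WT exercise mouse 201 and -13.9 in SCA1 sedentary mouse 194. It was -12.8 and -14.5 in SCA1 exercise mice 55 and 122, and 22.6 or more in every other library. By this measure the groups were not balanced by sex, and no WT sedentary mouse had the low values of females. The libraries of mouse 16 (SCA1 sedentary) and mouse 55 (SCA1 exercise) stood apart before any group was compared. Read pairs with several alignments made up 6.38% and 6.33% of these libraries against 2.08% to 3.46% of the other 10. The summed level of 7 brainstem markers, Hox genes among them, was 44.5 and 45.3 CPM against 0.598 to 8.66 CPM, that of 6 oligodendrocyte markers 7008 and 5590 CPM against 2511 to 4227 CPM, and that of 4 Golgi and unipolar brush cell markers 375 and 339 CPM against 157 to 195 CPM. Values without these mice, from a fit that leaves 2 mice in each SCA1 group, are given beside the results that they bear on. The paper reports that some libraries came from RNA of lower integrity and were prepared differently. Those libraries are not named in the sources used here. The part of library preparation in the levels of mice 16 and 55 was not tested.

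None of the 8 genes was called in any of 7 comparisons, where a call required an adjusted p under 0.05 in edgeR's quasi-likelihood test and an absolute log2 fold change (log2FC) over 0.5. The background was low as well, since 0.0344% of all genes tested were called between SCA1 sedentary and WT sedentary mice, 0.118% for the genotype averaged over activity, and 0% in the other 5 comparisons. None of the 8 reached an unadjusted p of 0.05 either, while 10.1% of all genes did so for SCA1 sedentary against WT sedentary, 4.69% for WT exercise against WT sedentary, 2.17% for SCA1 exercise against SCA1 sedentary and 2.93% for SCA1 exercise against WT exercise. The corresponding shares were 9.81% for the genotype averaged over activity, 3.54% for exercise averaged over genotype and 3.78% for the interaction. The 56 fitted log2FCs of the 8 genes lay between -0.28 and 0.29, and the lowest unadjusted p among them was 0.0964, for Esrra with genotype (adjusted p = 0.574, edgeR).

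**Figure D1:**
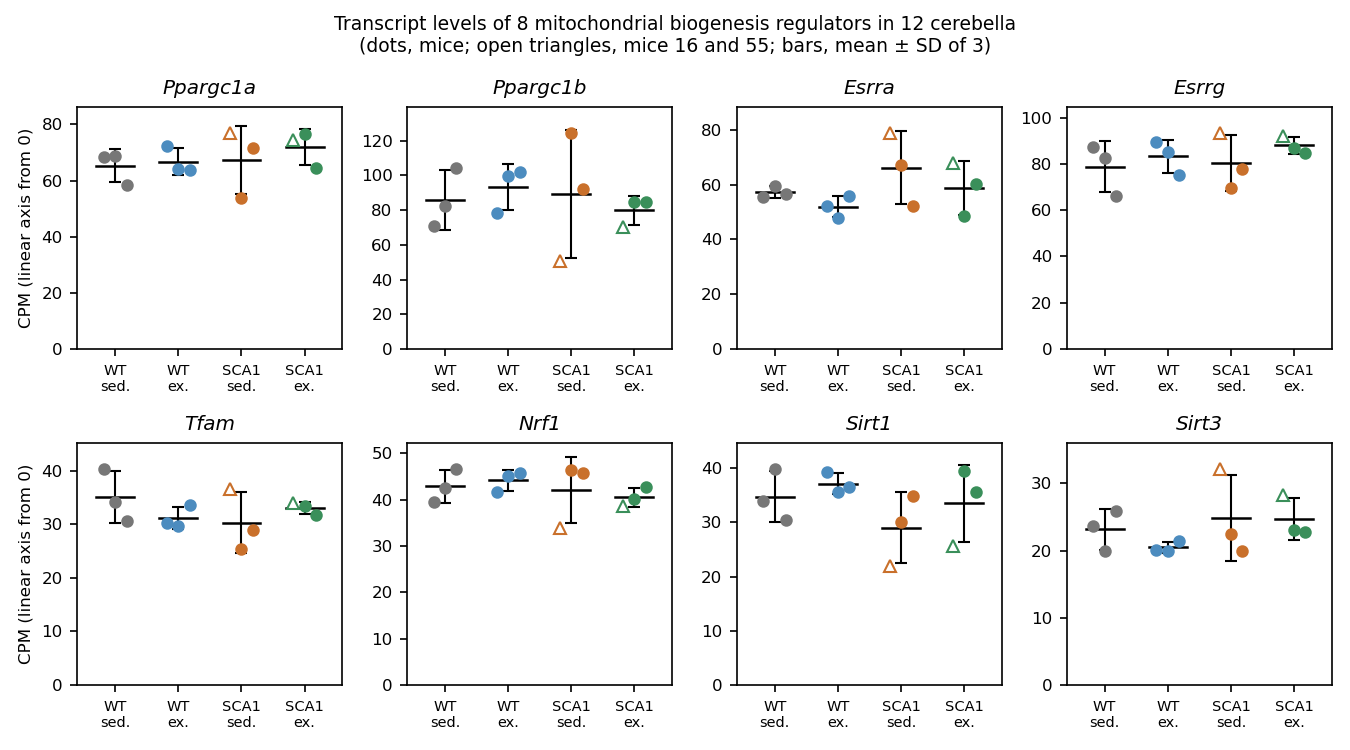
Levels of the 8 genes in CPM (vertical axes, linear from 0) in the 12 mice by group, with the mean and SD of 3 mice as bars and mice 16 and 55 as open triangles. Between groups that differ in genotype or activity alone, only Sirt3 in the exercised mice does not overlap, and the triangles sit at the low end of their groups for Ppargc1b, Nrf1 and Sirt1 and at the high end for Esrra, Esrrg and Sirt3.

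Ppargc1a, which encodes PGC-1alpha (ENSMUSG00000029167, chr5:51611592-51725068, minus strand), was the steadier of the coactivators. Its level was 68.5, 68.8 and 58.5 CPM in the WT sedentary mice 116, 117 and 192, and 72.2, 64.2 and 63.9 CPM in the WT exercise mice 121, 197 and 201. In SCA1 sedentary mice 16, 194 and 195 it was 77.0, 53.8 and 71.5 CPM, and in SCA1 exercise mice 55, 122 and 198 it was 74.4, 76.7 and 64.5 CPM. Both the lowest and the highest library were SCA1 sedentary, and the groups overlapped throughout. Exercise went with a log2FC of 0.03 in WT mice (95% interval -0.26 to 0.32) and of 0.09 in SCA1 mice (-0.20 to 0.38), and the interaction was 0.06 (-0.35 to 0.47, adjusted p = 1.000, edgeR). On the fold scale, differences of Ppargc1a above 1.25-fold with exercise in WT mice and 1.30-fold in SCA1 mice lay outside those intervals. The wheels were gone before the behavioral tests, so these bounds concern a difference that lasted and cannot speak to induction during running. The SCA1 genotype went with a log2FC of 0.05 in sedentary mice (-0.24 to 0.34) and 0.11 in exercised mice (-0.18 to 0.40).

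Ppargc1b, which encodes the paralogous coactivator PGC-1beta (ENSMUSG00000033871, chr18:61431195-61533735, minus strand), varied the most of the 8 genes. WT sedentary mice 116, 117 and 192 had 70.6, 82.5 and 104 CPM, and WT exercise mice 121, 197 and 201 had 78.0, 99.6 and 102 CPM. The SCA1 sedentary mice 16, 194 and 195 spanned the whole range of the study, at 50.8, 124 and 92.4 CPM, while SCA1 exercise mice 55, 122 and 198 had 70.2, 84.7 and 84.7 CPM. The SD of its log2 CPM over the 12 libraries was 0.34, larger than that of 94.8% of 2153 genes of like level, whose median was 0.16. For SCA1 sedentary against WT sedentary mice the log2FC was 0.06 (-0.50 to 0.61), and for SCA1 exercise against WT exercise mice it was -0.22 (-0.78 to 0.33). Exercise went with 0.12 in WT mice (-0.43 to 0.67) and -0.16 in SCA1 mice (-0.71 to 0.40). These intervals are the widest of the 8 genes and, over the 4 comparisons, reached from 0.583-fold to 1.60-fold.

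Esrra, the gene of ERRalpha, the receptor through which PGC-1 coactivators reach many genes of respiration (ENSMUSG00000024955, chr19:6888338-6899336, minus strand), had the lowest p of the 8. Its level was 55.6, 59.6 and 56.7 CPM in WT sedentary mice and 52.1, 48.0 and 55.8 CPM in WT exercise mice, in the mouse order given for Ppargc1a. SCA1 sedentary mice had 78.9, 67.1 and 52.4 CPM, and SCA1 exercise mice 67.7, 48.4 and 60.1 CPM. The highest library of each SCA1 group was mouse 16 or mouse 55, and the SCA1 libraries reached both above and within the WT range. The SCA1 genotype averaged over activity went with a log2FC of 0.19 (-0.04 to 0.42, unadjusted p = 0.0964, adjusted p = 0.574, edgeR), and an exact permutation within the sedentary and exercised mice gave p = 0.145. Without mice 16 and 55 the log2FC was 0.07 (adjusted p = 0.800, edgeR). Running went with -0.14 in WT mice and -0.17 in SCA1 mice, with an average of -0.16 (-0.39 to 0.08).

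Esrrg, the gene of ERRgamma, a constitutively active receptor of oxidative tissues (ENSMUSG00000026610, chr1:187340988-187947082, plus strand), had an SD of 0.16 on the log2 CPM scale. WT sedentary mice had 87.4, 82.5 and 66.3 CPM and WT exercise mice 89.4, 84.9 and 75.3 CPM. SCA1 sedentary mice had 93.4, 69.7 and 77.9 CPM and SCA1 exercise mice 92.1, 87.0 and 84.8 CPM. The exercised groups had the higher mean in each genotype, but their libraries overlapped those of the sedentary groups. The log2FC with running was 0.08 in WT mice (-0.20 to 0.36) and 0.13 in SCA1 mice (-0.15 to 0.41), and its average was 0.11 (-0.09 to 0.30, adjusted p = 0.945, edgeR).

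Nrf1, a nuclear factor that binds promoters of respiratory chain genes and of Tfam (ENSMUSG00000058440, chr6:30047892-30153462, plus strand), varied the least of the 8. The WT sedentary libraries had 39.6, 42.4 and 46.6 CPM, the WT exercise libraries 41.6, 45.0 and 45.8 CPM, the SCA1 sedentary libraries 33.8, 46.4 and 45.8 CPM and the SCA1 exercise libraries 38.7, 40.0 and 42.7 CPM. Mouse 16 was the lowest and mouse 55 the next, and the other 10 libraries lay between 39.6 and 46.6 CPM. Its SD on the log2 CPM scale was 0.14, larger than that of only 32.5% of genes of like level. The log2FC was -0.03 for SCA1 sedentary against WT sedentary mice (-0.30 to 0.24) and -0.12 for SCA1 exercise against WT exercise mice (-0.40 to 0.15).

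Tfam (ENSMUSG00000003923, chr10:71061287-71074110, minus strand) had 40.3, 34.1 and 30.7 CPM in WT sedentary mice and 30.3, 29.6 and 33.6 CPM in WT exercise mice. SCA1 sedentary mice had 36.6, 25.4 and 28.9 CPM, and SCA1 exercise mice 33.9, 33.4 and 31.8 CPM. The SCA1 exercise libraries lay close together, and the lowest library of all was SCA1 sedentary mouse 194. The log2FC was -0.21 for SCA1 sedentary against WT sedentary mice (-0.52 to 0.10, unadjusted p = 0.165, adjusted p = 0.652, edgeR) and 0.08 for SCA1 exercise against WT exercise mice (-0.22 to 0.39). Their difference, the interaction, was 0.29 (-0.14 to 0.73, adjusted p = 1.000, edgeR) and the highest of the 8. In the fit without mice 16 and 55, which leaves 2 mice in each SCA1 group, Tfam was -0.35 in SCA1 sedentary against WT sedentary mice (-0.62 to -0.08, unadjusted p = 0.0148, adjusted p = 0.146, edgeR) and the interaction was 0.43 (unadjusted p = 0.0304, adjusted p = 0.291, edgeR). Mouse 16 was the SCA1 sedentary library with the most Tfam, and in that fit 20.2% of all genes reached an unadjusted p of 0.05 for SCA1 sedentary against WT sedentary mice.

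Sirt1, the nuclear deacetylase that acts on PGC-1alpha (ENSMUSG00000020063, chr10:63154581-63217483, minus strand), had the lowest levels in mice 16 and 55. Its level was 33.9, 39.9 and 30.5 CPM in WT sedentary mice, 39.4, 35.7 and 36.5 CPM in WT exercise mice, 22.0, 30.1 and 34.9 CPM in SCA1 sedentary mice and 25.6, 39.4 and 35.6 CPM in SCA1 exercise mice. The WT exercise libraries, at 35.7 CPM or more, did not overlap the SCA1 sedentary libraries, at 34.9 CPM or less. These 2 groups differ in both genotype and activity and were not compared by a test. The share of all genes that separate them was not computed. For the 4 pairs of groups that differ in genotype or activity alone, that share was 4.5% to 21.2%. Apart from mice 16 and 55 the libraries lay between 30.1 and 39.9 CPM. The log2FC for SCA1 sedentary against WT sedentary mice was -0.26 (-0.67 to 0.14, adjusted p = 0.666, edgeR), and without mice 16 and 55 it was -0.08 (adjusted p = 0.767, edgeR). Exercise averaged over genotype went with 0.15 (-0.13 to 0.44).

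Sirt3, the main deacetylase of the mitochondrial matrix (ENSMUSG00000025486, chr7:140443577-140462311, minus strand), was the only 1 of the 8 genes whose groups did not overlap in one of the 4 comparisons of groups that differ in genotype or activity alone. WT sedentary mice had 23.6, 19.9 and 25.9 CPM and WT exercise mice 20.0, 20.0 and 21.4 CPM. SCA1 sedentary mice had 32.1, 22.5 and 20.0 CPM and SCA1 exercise mice 28.3, 23.0 and 22.8 CPM. All 3 SCA1 exercise libraries were above all 3 WT exercise libraries, as was the case, in either direction, for 14.2% of all genes tested. The log2FC was 0.27 (-0.10 to 0.64, unadjusted p = 0.142, adjusted p = 0.960, edgeR), the exact permutation p was 0.1, the smallest that 3 mice against 3 can give, and without mouse 55 and mouse 16 the log2FC was 0.17. In the other 3 of these comparisons none of the 8 genes separated the groups, against 11.4% of all genes for SCA1 sedentary against WT sedentary, 21.2% for WT exercise against WT sedentary and 4.5% for SCA1 exercise against SCA1 sedentary.

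**Figure D2:**
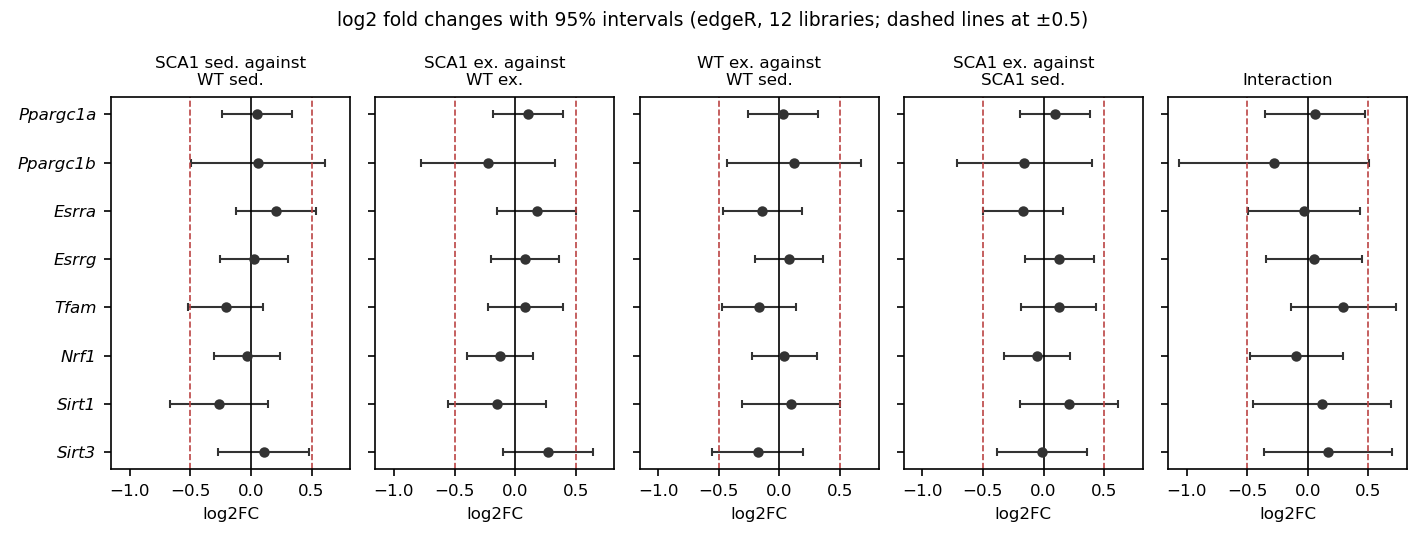
The log2FC of each gene (horizontal axes) with its 95% interval from edgeR in 4 comparisons of groups and in the interaction of genotype and exercise, with dashed lines at -0.5 and 0.5. Every interval includes 0, and those of Ppargc1b are the widest.

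Across the list the direction was mixed. For SCA1 sedentary against WT sedentary mice 5 of the 8 fitted values were above 0 and 3 below, with a median log2FC of 0.04 beside 0.02 over all genes tested. WT exercise against WT sedentary mice gave 5 above and 3 below with a median of 0.04, beside 1.66e-05 over all genes, and SCA1 exercise against SCA1 sedentary mice gave 4 and 4 with a median of 0.04, beside -0.01. The first 2 of these comparisons share the WT sedentary mice and the first and last share the SCA1 sedentary mice. For SCA1 exercise against WT exercise mice, 5 were above 0 and 3 below, with a median of 0.08 beside 0.0036 over all genes.

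Per kilobase of exon, the 8 transcripts covered a narrow range. Ppargc1b had the highest mean level, 15.1 ± 3.33 CPM per kb (SD, n = 12), followed by Esrrg with 13.3 ± 1.39, Esrra with 11.7 ± 1.80 and Ppargc1a with 9.61 ± 1.01 CPM per kb. Tfam had 6.88 ± 0.822, Sirt1 5.93 ± 0.987, Nrf1 3.90 ± 0.357 and Sirt3 2.65 ± 0.432 CPM per kb. Each gene overlapped the next in the range over libraries. Within libraries, Ppargc1b exceeded Esrrg in 8 of 12, Esrrg exceeded Esrra in 9 of 12, Esrra exceeded Ppargc1a in 11 of 12 and Ppargc1a exceeded Tfam in 12 of 12. Tfam exceeded Sirt1 in 10 of 12, Sirt1 exceeded Nrf1 in 12 of 12 and Nrf1 exceeded Sirt3 in 11 of 12. The ratio of Ppargc1a to Ppargc1b per length ran from 0.354 in SCA1 sedentary mouse 194 to 1.24 in SCA1 sedentary mouse 16, so that both extremes fell within 1 group. In the remaining 10 libraries it lay between 0.459 and 0.867.

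The 8 genes did not vary together across the mice. Of the 28 pairs, 12 had a positive and 16 a negative Pearson's r of log2 CPM over the 12 libraries. These values describe 12 libraries that share a tissue, differ in depth and cell content, and include 4 groups, and 16 of the 28 kept their sign without mice 16 and 55. Ppargc1a went against Ppargc1b, with r = -0.80 (rho = -0.80, and r = -0.67 without mice 192 and 194, the farthest from the median of Ppargc1a). Ppargc1b moved with Nrf1, with r = 0.95 (rho = 0.94, and 0.93 without mice 16 and 194, the farthest in Ppargc1b). Ppargc1a moved with Esrrg, with r = 0.83 (rho = 0.82, and 0.61 without mice 192 and 194), and Esrrg went against Nrf1, with r = -0.81 (rho = -0.95, and -0.84 without mice 192 and 194). Tfam, a textbook target of NRF1, went against Nrf1, with r = -0.69 (rho = -0.69, and -0.74 without mice 116 and 194). These 5 values were -0.78, 0.87, 0.78, -0.82 and -0.70 without mice 16 and 55.

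The sirtuins rested on mice 16 and 55. Sirt1 went against Sirt3 with r = -0.89 (rho = -0.70), and this was -0.60 without those mice, which were also the farthest in Sirt1. Sirt1 and Ppargc1a had r = -0.08 (rho = 0.02) over the 12 libraries and r = 0.83 without mice 16 and 55, while leaving out mice 192 and 194, the farthest in Ppargc1a, gave -0.45, so no single value describes the pair. Esrra and Ppargc1a, a receptor and its coactivator, had r = -0.0047 (rho = 0.03) and -0.69 without mice 16 and 55.

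**Figure D3:**
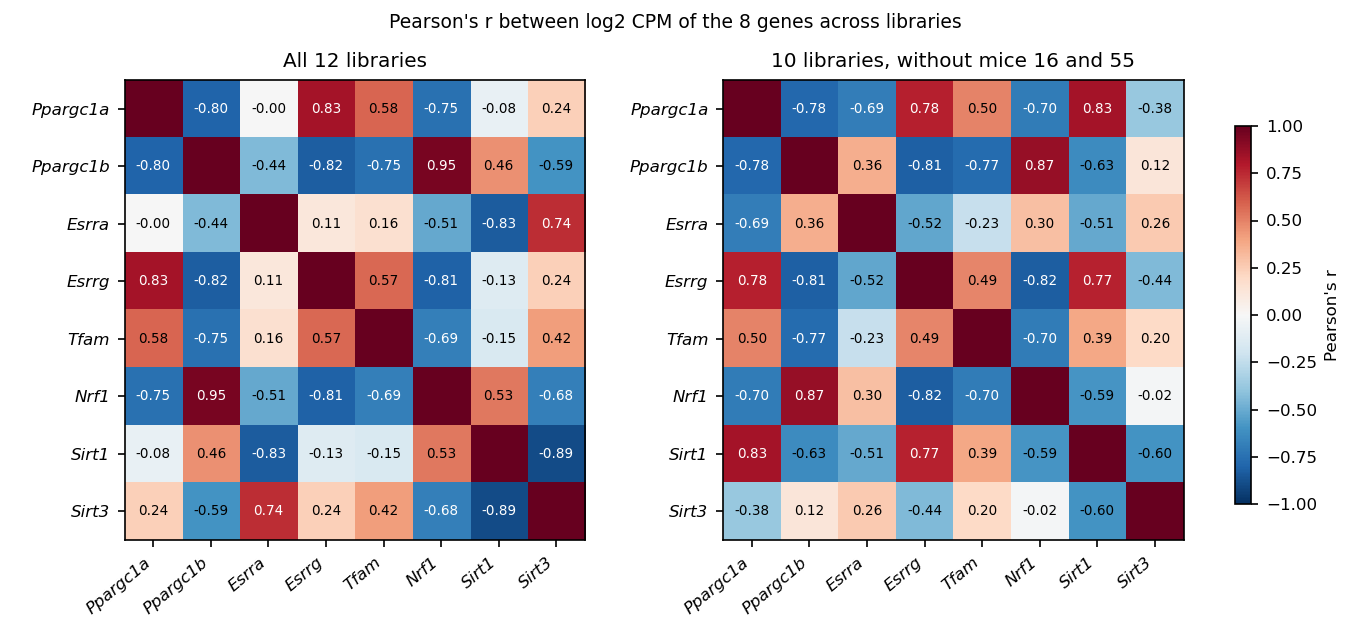
Pearson's r between the log2 CPM of each pair of the 8 genes, over all 12 libraries on the left and over the 10 libraries without mice 16 and 55 on the right (color scale from -1 to 1). Ppargc1b and Nrf1 stand against Ppargc1a, Esrrg and Tfam in both, whereas the values of Sirt1 change sign between the panels for 5 of its 7 partners.

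In mice 16 and 55, 6 of the 8 genes lay outside the range of the other 10 libraries in both mice, as did 31.5% of all genes tested. Ppargc1b (50.8 and 70.2 CPM against 70.6 to 124), Nrf1 (33.8 and 38.7 against 39.6 to 46.6) and Sirt1 (22.0 and 25.6 against 30.1 to 39.9) were below it. Esrra (78.9 and 67.7 against 48.0 to 67.1), Esrrg (93.4 and 92.1 against 66.3 to 89.4) and Sirt3 (32.1 and 28.3 against 19.9 to 25.9) were above it. Tfam lay inside the range in both, and Ppargc1a was outside in mouse 16 alone, at 77.0 CPM against 53.8 to 76.7. The brainstem and oligodendrocyte markers were higher in the same 2 libraries, by the values given above, and their part in these levels was not tested. Without these mice none of the 8 genes was called, and 2 of 8 had an unadjusted p under 0.05 for SCA1 sedentary against WT sedentary mice beside 20.2% of all genes. One was Tfam, given above, and the other Ppargc1b, with a log2FC of 0.36 (0.02 to 0.70, unadjusted p = 0.0418, adjusted p = 0.226, edgeR).

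The libraries also differed in a measure of base composition, to which 3 of the 8 genes were more closely related than the other 5 over all 12 libraries, though not without mice 16 and 55. The median log2 deviation of genes with exon GC of at least 54.1% minus that of genes with at most 43.0% was 0.433 in mouse 194, 0.289 in mouse 16, 0.203 in mouse 55 and 0.161 in mouse 192, and between -0.258 and -0.0194 in the other 8 libraries. Across the 12 libraries it had r = 0.81 with Esrra (rho = 0.73, and 0.71 without mice 194 and 16), whose exons are 56.0% GC, and r = -0.83 with Sirt1 (rho = -0.92, and -0.93 without mice 194 and 16), whose exons are 42.9% GC. For Sirt3, with 48.5% GC, r was 0.67 (rho = 0.65, and 0.84 without mice 194 and 16), and 0.49 without mice 16 and 55. The other 5 genes had r between -0.40 and -0.04. For Ppargc1b, with 55.5% GC, r was -0.04 (rho = -0.01), but 0.67 without mice 16 and 55. For Ppargc1a, with 41.8% GC, r was -0.40 (rho = -0.28), and -0.90 without mice 16 and 55. For Esrrg, with 43.5% GC, r was -0.26 (rho = -0.01), and -0.74 without those mice. These are descriptions over libraries whose genes share the same reads, and the part of base composition in the levels was not tested.

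The genes most like each regulator over the 12 libraries were found among 11126 genes with a mean log2 CPM of at least 3. They were picked for the highest r among that many genes, and shared regulation was not tested. Those closest to Ppargc1a were Cert1, a ceramide transfer protein, with r = 0.94 (rho = 0.93), Txndc16 with 0.93 (rho = 0.87) and Mob3b with 0.92 (rho = 0.86), and the 3 values were 0.82, 0.81 and 0.83 without mice 192 and 194. For Ppargc1b it was Cacna1a, the pore subunit of the P/Q-type calcium channel abundant in Purkinje and granule cells, with r = 0.98 (rho = 0.91, and 0.94 without mice 16 and 194). Esrra was closest to Znhit1 (r = 0.98, rho = 0.96, and 0.95 without mice 16 and 55), and Esrrg to Nadk2, the mitochondrial NAD kinase (r = 0.92, rho = 0.92, and 0.82 without mice 192 and 194). Tfam was closest to Sgpp1, a sphingosine phosphate phosphatase, with r = 0.97 (rho = 0.96, and 0.91 without mice 116 and 194). Nrf1 was closest to Pxn, the gene of paxillin (r = 0.98, rho = 0.99), Sirt1 to Zmym5 (r = 0.98, rho = 0.94) and Sirt3 to Prr5l (r = 0.98, rho = 0.90), with values of 0.94, 0.90 and 0.92 without mice 16 and 55.

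Around the 8 genes, 10 lists of 119 further genes of the pathway were followed, of which 117 were tested. None was called in any comparison. An unadjusted p under 0.05 was reached by 19 of 117 (16.2%) for SCA1 sedentary against WT sedentary mice, beside 10.1% of all genes tested, and by 20 (17.1%) for the genotype averaged over activity, beside 9.81%. The count was 6 (5.13%, beside 4.69%) for WT exercise against WT sedentary, 7 (5.98%, beside 2.17%) for SCA1 exercise against SCA1 sedentary and 2 (1.71%, beside 2.93%) for SCA1 exercise against WT exercise. It was 2 (1.71%, beside 3.54%) for exercise averaged over genotype and 10 (8.55%, beside 3.78%) for the interaction. Of the 19, 8 were mtDNA genes, which are read together from long transcripts and are not independent. Such genes were also 6 of the 7 for SCA1 exercise against SCA1 sedentary and 6 of the 10 for the interaction.

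Upstream of the coactivators, 16 signalling genes had 4 with an unadjusted p under 0.05 for the genotype averaged over activity, all of them lower in SCA1 mice, beside 9.81% of all genes tested in either direction, and none for exercise averaged over genotype. Without mice 16 and 55 the count was again 4, all lower, beside 11.7% of all genes. Camkk2, a calcium-dependent kinase that activates AMPK, had the lowest p, with a log2FC of -0.43 (-0.70 to -0.15, adjusted p = 0.276, edgeR), and -0.28 without mice 16 and 55 (adjusted p = 0.0777, edgeR). Its level was 322 ± 26.7 and 311 ± 19.7 CPM in sedentary and exercised WT mice, against 237 ± 69.9 and 233 ± 18.4 CPM in sedentary and exercised SCA1 mice (SD, n = 3). Creb1, the gene of CREB, had 91.7 ± 12.9, 96.8 ± 1.57, 73.5 ± 14.4 and 90.0 ± 10.8 CPM in the same group order, and a log2FC of 0.19 with running (adjusted p = 0.945, edgeR). Ppp3ca, the catalytic subunit of calcineurin, had the highest level per length of this list, 50.3 CPM per kb.

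Among the 7 coregulators, Kat2a, an acetyltransferase that opposes SIRT1 on PGC-1alpha, was nominally higher with the SCA1 genotype (log2FC 0.17, 0.01 to 0.34, adjusted p = 0.484, edgeR), and Crebbp had the highest level, 29.0 CPM per kb. Of 14 partner transcription factors, 3 had an unadjusted p under 0.05 for genotype, all below WT, beside 9.81% of all genes, and 1 did without mice 16 and 55. Gabpb1, a subunit of the ETS factor GABP also known as NRF2, had a log2FC of -0.33 (-0.54 to -0.11, adjusted p = 0.301, edgeR), with 30.4 ± 4.29 CPM in sedentary and 29.2 ± 2.02 CPM in exercised WT mice, and 22.3 ± 3.49 CPM and 25.5 ± 2.17 CPM in the SCA1 mice in that order. Thra, a thyroid hormone receptor, led that list per length at 41.2 CPM per kb, and Foxo1 had the lowest p with running (log2FC 0.19, adjusted p = 0.945, edgeR). None of the 5 other sirtuins reached an unadjusted p of 0.05 in any comparison. Without mice 16 and 55, 2 did so for genotype, both higher in SCA1 mice, beside 11.7% of all genes. Sirt2, a sirtuin of oligodendrocytes, had the highest level of these, 18.5 CPM per kb, and a log2FC of 0.15 with genotype (adjusted p = 0.621, edgeR), which was 0.04 without those mice.

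Downstream, the 17 genes of mtDNA transcription and replication had a median log2FC of -0.12 for SCA1 sedentary against WT sedentary mice and 14 fitted values below 0. Over all genes tested the median was 0.02, and 52.5% were above 0. At an unadjusted p under 0.05, 1 of the 17 was higher and 1 lower, beside 10.1% of all genes. Without mice 16 and 55 the median of the 17 was -0.08, and 2 were higher and 0 lower at that p, beside 20.2%. For exercise averaged over genotype, Lonp1, the matrix protease that degrades TFAM, had the lowest p (log2FC -0.17, -0.34 to -0.00095, adjusted p = 0.945, edgeR). Its level was 74.2 ± 4.17 and 69.4 ± 3.17 CPM in sedentary and exercised WT mice, against 84.4 ± 9.69 and 71.3 ± 8.17 CPM in sedentary and exercised SCA1 mice. Top1mt, the mitochondrial topoisomerase, had a log2FC of 0.31 with genotype (adjusted p = 0.486, edgeR), and 0.17 without mice 16 and 55. Of the 23 metabolic and antioxidant targets, 20 had fitted values above 0 for the genotype averaged over activity, with a median of 0.10 beside 0.01 over all genes tested. An unadjusted p under 0.05 was reached by 2 of them, beside 9.81% of all genes. Without mice 16 and 55 that median was -0.01 and none of the 23 had an unadjusted p under 0.05 for genotype. For WT exercise against WT sedentary mice, 20 of the 23 were below 0 with all mice, with a median of -0.17. At an unadjusted p under 0.05, 1 was lower and 1 higher, beside 4.69% of all genes. Without mice 16 and 55, which are in neither of these groups, the median was again -0.17. In that fit 12 were lower and 2 higher at an unadjusted p under 0.05, beside 13.3% of all genes. For the interaction 2 were higher and 0 lower with all mice, beside 3.78%. Without mice 16 and 55, 13 were higher and 1 lower, beside 14.8%. None was called, and the lowest adjusted p in these 2 comparisons was 0.142 in edgeR. The summed level of the list was highest in mouse 16, at 4618 CPM, against 3002 to 3965 CPM in the libraries other than those 2 mice. Cpt1a, which admits long fatty acids to mitochondria, had a log2FC of 0.28 with genotype (0.05 to 0.50, adjusted p = 0.417, edgeR), and 0.17 without mice 16 and 55 (unadjusted p = 0.0716, adjusted p = 0.484, edgeR). Ucp2, an inner membrane carrier, had 0.26 with running (-0.01 to 0.54, adjusted p = 0.945, edgeR), and Atp5f1b, an ATP synthase subunit, had the highest level, 189 CPM per kb.

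The 5 neuronal genes known to depend on PGC-1alpha were Pvalb, Syt2, Cplx1, Nefh and Pacs2. Cplx1, which encodes the vesicle fusion protein complexin 1, had 332 ± 11.7 CPM in sedentary and 291 ± 20.2 CPM in exercised WT mice, and 436 ± 167 CPM and 395 ± 72.3 CPM in the SCA1 mice in that order, with a log2FC of 0.42 for genotype (0.09 to 0.74, adjusted p = 0.402, edgeR). It was highest in mice 16 and 55, at 628 and 479 CPM against 274 to 363 CPM in the other 10 libraries, and without them the log2FC was 0.17 (unadjusted p = 0.0163, adjusted p = 0.277, edgeR). Pacs2 had the lowest p of this list with running (log2FC -0.12, adjusted p = 0.945, edgeR). Pvalb, the calcium buffer of fast-spiking cells, had 386, 313 and 323 CPM in WT sedentary mice 116, 117 and 192 and 279, 261 and 240 CPM in WT exercise mice 121, 197 and 201. It had 270, 245 and 189 CPM in SCA1 sedentary mice 16, 194 and 195 and 321, 216 and 258 CPM in SCA1 exercise mice 55, 122 and 198. The WT sedentary libraries were thus above all SCA1 sedentary and all WT exercise libraries. Such a separation, in either direction, was seen for 11.4% of all genes tested between SCA1 sedentary and WT sedentary mice. Between WT exercise and WT sedentary mice that share was 21.2%. The log2FC for WT exercise against WT sedentary mice was -0.39 (unadjusted p = 0.0327, adjusted p = 0.958, edgeR). The log2FC for SCA1 sedentary against WT sedentary mice was -0.54 (-0.89 to -0.19, adjusted p = 0.297, edgeR), and without mice 16 and 55 it was -0.63 (-0.91 to -0.36, adjusted p = 0.0322, edgeR) and Pvalb was called, in a fit that called 205 of 20494 genes. It was the only 1 of the 117 pathway genes called there. In the same fit 6 of 8 Purkinje cell markers were called, with a median log2FC of -0.65. The part of these cells in the level of Pvalb was not tested.

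Among genes of mitochondrial shape, none of 10 had an unadjusted p under 0.05 in any comparison with all 12 mice. Without mice 16 and 55, 3 did for SCA1 sedentary against WT sedentary, beside 20.2% of all genes. Dnm1l, the fission GTPase, had the highest level of these, 29.8 CPM per kb, and Mief2, a receptor for it, had a log2FC of 0.30 with genotype (adjusted p = 0.535, edgeR) and -0.28 with running (adjusted p = 0.945, edgeR), against 0.14 and -0.18 without those mice. All 9 import genes had fitted values below 0 for exercise averaged over genotype, with a median of -0.08, and of -0.03 without mice 16 and 55. Tomm40, the channel of the outer membrane, had the lowest p of these (log2FC -0.19, -0.35 to -0.02, adjusted p = 0.945, edgeR), and Hspa9, the matrix chaperone that pulls proteins in, the highest level, 33.6 CPM per kb.

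The transcripts of mtDNA itself, which TFAM serves, took their smallest share of the reads in SCA1 sedentary mice. The 13 protein genes of mtDNA took 1.65 ± 0.209% of counted read pairs in sedentary and 1.47 ± 0.133% in exercised WT mice, and 1.22 ± 0.136% in sedentary and 1.53 ± 0.0462% in exercised SCA1 mice (SD, n = 3). The SCA1 sedentary libraries, at 1.21%, 1.09% and 1.36% in mice 16, 194 and 195, were below all 3 WT sedentary libraries (1.86%, 1.65% and 1.44%) and below all 3 SCA1 exercise libraries (1.58%, 1.52% and 1.49%). Each of these separations gave an exact permutation p of 0.1, the smallest possible with 3 mice against 3. Among single genes, the same 2 pairs of groups did not overlap in CPM for 11.4% and 4.5% of all genes tested. For WT exercise against WT sedentary mice p was 0.2 (exact permutation), with overlap.

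Of the 13 genes, 6 (mt-Co2, mt-Atp8, mt-Atp6, mt-Co3, mt-Nd3 and mt-Nd4l) were under 2 CPM in every library and are not read further, and 7 were over 10 CPM in every library. The 6 of these on the heavy strand all had fitted values below 0 for SCA1 sedentary against WT sedentary mice, with a median log2FC of -0.47. All 6 had an unadjusted p under 0.05, beside 10.1% of all genes tested. Their adjusted p ran from 0.162 to 0.483 in edgeR, so none was called. The largest were mt-Nd2 (-0.69, -1.05 to -0.32) and mt-Nd1 (-0.64, -0.95 to -0.33), subunits of complex I, and mt-Co1, the catalytic subunit of complex IV and the highest of the list at 4178 CPM per kb, was at -0.49 (-0.81 to -0.16). DESeq2, run as an alternative, gave an adjusted p under 0.05 for 3 of the 6 and called mt-Nd1 and mt-Nd2, among 201 genes called. For SCA1 exercise against SCA1 sedentary mice, a comparison that shares the SCA1 sedentary mice, all 6 were above 0 with a median of 0.35. An unadjusted p under 0.05 was reached by 4, beside 2.17% of all genes, and the adjusted p was 0.999 in edgeR. The interaction had a median of 0.50 over the 6, with 4 at an unadjusted p under 0.05, beside 3.78% of all genes, and an adjusted p of 1.000 in edgeR. mt-Nd4 had the lowest p of this list for exercise averaged over genotype (log2FC 0.16, adjusted p = 0.945, edgeR).

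mt-Nd6, the gene on the light strand, had a log2FC of 0.45 for SCA1 sedentary against WT sedentary mice (-0.15 to 1.05, adjusted p = 0.609, edgeR). It was 405 CPM in mouse 16 and 286 CPM in mouse 55, against 157 to 220 CPM in the other 10 libraries, and without these mice its log2FC was 0.0035 (adjusted p = 0.991, edgeR). In the same fit the 6 heavy-strand genes had a median of -0.45 for SCA1 sedentary against WT sedentary mice, with a lowest adjusted p of 0.0562 in edgeR. Of these genes 5 had an unadjusted p under 0.05, beside 20.2% of all genes. Their median was 0.29 for SCA1 exercise against SCA1 sedentary mice and 0.42 for the interaction. In each, 3 of the 6 had an unadjusted p under 0.05, beside 8.79% and 14.8% of all genes.

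Cell type markers moved in the same comparison. All 8 Purkinje cell markers had an unadjusted p under 0.05 and were below WT in SCA1 sedentary mice, with a median log2FC of -0.77 and 2 called. Of all genes tested, 10.1% had such a p and 0.0344% were called. The summed level of the 8 Purkinje markers was 4236 to 5735 CPM against 7059 to 7946 CPM in WT sedentary mice. It was 5733 to 7010 CPM in SCA1 exercise and 7434 to 7902 CPM in WT exercise mice. All 6 granule cell markers had an unadjusted p under 0.05 as well, with a median of -0.56 and none called. Without mice 16 and 55, 6 of the 8 Purkinje markers were called, with a median of -0.65, in a fit that called 205 of 20494 genes. In that fit 4 of the 6 granule cell markers had an unadjusted p under 0.05, with a median of -0.33, beside 20.2% of all genes. So did 6 of 6 oligodendrocyte markers (median -0.45, against 0.10 with all mice). Lower at that p were also 4 of 5 Bergmann glia and astrocyte markers (median -0.39) and 4 of 6 microglia markers (-0.36). None of the 5 endothelium markers reached it, and 3 of 5 choroid plexus markers did and were higher. With all mice, the 5 choroid plexus markers had a median log2FC of 1.80, 2 of them with an unadjusted p under 0.05. Their summed level was 13.3 to 408 CPM in WT sedentary, 14.5 to 1160 CPM in SCA1 sedentary, 816 to 1908 CPM in WT exercise and 520 to 1595 CPM in SCA1 exercise mice. In bulk tissue, fewer cells of a type and less RNA per cell cannot be told apart, and the part of these cell types in the mtDNA transcripts was not tested.

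**Figure D4:**
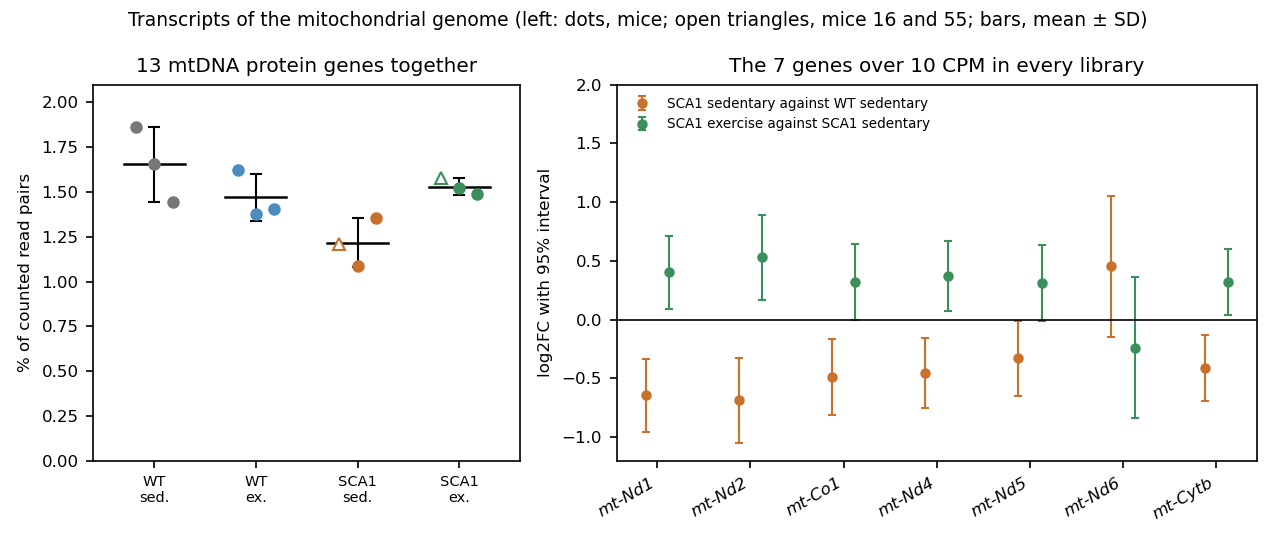
Left, the share of counted read pairs on the 13 mtDNA protein genes (vertical axis in percent, from 0) in the 12 mice by group, with mean and SD as bars and mice 16 and 55 as open triangles. Right, the log2FC with its 95% interval for the 7 genes over 10 CPM, where the 6 heavy-strand genes are below 0 for SCA1 sedentary against WT sedentary mice and above 0 for SCA1 exercise against SCA1 sedentary mice, and mt-Nd6, whose values are near 0 without mice 16 and 55, has the opposite signs.

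Reads on the strand opposite to the 8 genes were at most 1.14% of their reads on both strands for 5 of them. Esrra, Sirt1 and Sirt3 overlap exons of genes on the other strand, Trmt112 by 1479 bases for Esrra, Herc4 by 707 for Sirt1, and Ric8a by 473 and Psmd13 by 458 for Sirt3. In the opposite orientation they had 21 to 49, 45 to 83 and 44 to 97 read pairs in a library, and the other 5 genes at most 15. These were up to 3.57% for Esrra, 5.97% to 9.02% for Sirt1 and 4.81% to 15.7% for Sirt3. The library kit keeps the strand, so the levels above leave these reads out. Gene counts do not separate isoforms, and Ppargc1a, Esrra and Esrrg have several starts that were not told apart.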

How the data were processed

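Total RNA from the cerebellum of each mouse was depleted of ribosomal RNA and made into strand-specific libraries by the authors, who trimmed reads rich in adapters with fastp 0.24.0 and aligned the pairs to GRCm39 with STAR 2.7.10a. The authors deposited STAR's gene counts without normalizing them, in 12 tables of 56941 genes and 4 summary lines. The annotation release behind these counts is not given in the sources used here. Libraries were not all made alike. The paper reports a shorter fragmentation and fewer amplification cycles for some samples with lower RNA integrity. Which mice these were is not given in the sources used here. STAR counts only pairs with a single alignment, which lowers mtDNA genes that have copies in the nuclear genome. The summary lines, left out of library sizes and tests, held 49.8% to 64.3% of the read pairs. Tables hold 1 library each, and no column of another sample was present.

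Reverse-strand counts were used here. With edgeR 4.0.16 in R 4.3.3, filterByExpr left 20341 genes, TMM factors were applied, and 1 quasi-likelihood model of the 4 groups gave all 7 comparisons, with Benjamini-Hochberg adjustment over all genes tested. The adjusted p limit of the call was 0.05 and that of the log2FC 0.5. CPM values rest on TMM library sizes, and 2 was the prior count of log2 CPM. For single genes a two-sided exact permutation was run as well, whose smallest p is 0.1 for 3 mice against 3 and 0.005 within 2 strata of 6. The replicates are separate mice. Positions and exon lengths are those of GENCODE M39 on GRCm39, in which 56323 of 56941 genes were found. The fits were tested on simulated data. The 8 genes and all lists were chosen with earlier results of these data known. Pathway genes named were those called, the highest per length in each list and the lowest p for genotype and for exercise, each averaged over the other factor. Alternatives were RLE factors, DESeq2 1.42.0, genes with at least 1 count, unstranded counts, chromosome Y expression or 3 bands of mouse numbers as a covariate, omission of mice 16 and 55 or of any single mouse, and no limit on the log2FC. The summaries of mtDNA and pathway genes over these alternatives were added after the data had been seen. Splicing was not analysed here.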

Additional observations from a re-analysis of the deposited data

How the results depend on the processing

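None of the 8 genes was called under any of the 19 alternative fits, nor without the limit on the log2FC, and the lowest adjusted p in 1064 refitted values was 0.146 (Tfam without mice 16 and 55, edgeR). RLE factors and raw library totals moved 0 of 64 CPM values by more than the spread between mice. Of the 1064 values, 81 changed sign, and the cause was not tested. Over all genes, the number called for SCA1 sedentary against WT sedentary mice was 7, but 205 without mice 16 and 55 and 201 with DESeq2, and for the genotype averaged over activity it was 24, but 142 and 179. No paired analysis was possible because the groups share no replicate numbers. The 8 genes had at least 415 counted read pairs in every library, and each group had 3 mice.

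Without mice 16 and 55, log2FCs turned sign for SCA1 sedentary against WT sedentary in Ppargc1a (-0.042), Esrrg (-0.077), Nrf1 (0.12) and Sirt3 (-0.11), for SCA1 exercise against SCA1 sedentary in Sirt3 (0.11), for SCA1 exercise against WT exercise in Sirt1 (0.023), for genotype in Ppargc1b (0.11), Esrrg (-0.011) and Nrf1 (0.020), and for exercise in Tfam (0.048). With chromosome Y expression, Ppargc1b turned to -0.076 for SCA1 sedentary against WT sedentary. With bands of mouse numbers, which the labels do not call batches, the same comparison turned in Sirt1 (0.0087) and Sirt3 (-0.11), and WT exercise against WT sedentary in Nrf1 (-0.011). SCA1 exercise against SCA1 sedentary turned in Ppargc1b (0.042), Nrf1 (0.015) and Sirt3 (0.033), and SCA1 exercise against WT exercise in Ppargc1b (0.050), Esrrg (-0.0083) and Tfam (-0.0098). Genotype turned in Ppargc1b (0.032) and Sirt1 (0.0039), exercise in Ppargc1b (0.024) and Nrf1 (0.0021), and the interaction in Ppargc1a (-0.090), Ppargc1b (0.036), Esrra (0.015), Esrrg (-0.084), Nrf1 (0.026) and Sirt1 (-0.0095).

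Leaving out each mouse in turn gave ranges that crossed 0. For SCA1 sedentary against WT sedentary these were -0.060 to 0.17 for Ppargc1a, -0.27 to 0.34 for Ppargc1b, -0.096 to 0.11 for Esrrg, -0.12 to 0.10 for Nrf1 and -0.13 to 0.23 for Sirt3. For WT exercise against WT sedentary they were -0.043 to 0.086 for Ppargc1a, -0.00031 to 0.28 for Ppargc1b, -0.031 to 0.16 for Esrrg and -0.012 to 0.10 for Nrf1. For SCA1 exercise against SCA1 sedentary they were -0.035 to 0.20 for Ppargc1a, -0.44 to 0.17 for Ppargc1b, -0.19 to 0.036 for Nrf1 and -0.14 to 0.22 for Sirt3, and for SCA1 exercise against WT exercise -0.30 to 0.023 for Sirt1. For genotype they were -0.25 to 0.058 for Ppargc1b and -0.0093 to 0.091 for Esrrg. For exercise they were -0.0012 to 0.11 for Ppargc1a, -0.16 to 0.14 for Ppargc1b, -0.073 to 0.056 for Tfam, -0.073 to 0.039 for Nrf1 and -0.16 to 0.020 for Sirt3. For the interaction they were -0.068 to 0.17 for Ppargc1a, -0.56 to 0.048 for Ppargc1b, -0.17 to 0.12 for Esrra, -0.031 to 0.18 for Esrrg and -0.052 to 0.28 for Sirt1. The median of the 6 heavy-strand mtDNA genes for SCA1 sedentary against WT sedentary stayed between -0.57 and -0.38 over the 19 alternatives.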
